A study of Mus musculus with 20 samples.

Results

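Nnt encodes nicotinamide nucleotide transhydrogenase, and its RNA level was followed through 20 mouse liver libraries. It is 1 gene of the 46603 gene identifiers counted and of the 14661 that passed the filter on low counts and were tested. It was selected on measured values: its level in each library by genotype, and its agreement between the libraries of the same mouse, as first seen in these counts. Those levels are therefore given here as a description without a test, and tests are kept for the response to surgery and for other genes. The response of Nnt is computed from the same libraries, so its p-values are not independent of the selection.

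The libraries were made from poly(A) RNA of whole liver from male mice aged 2 months, in 4 groups of 5. Wild-type (WT) mice were C57BL/6J animals bought from a vendor. EedHepKO (KO) mice came from crosses of an Alb:Cre line, in which the albumin promoter drives Cre recombinase in hepatocytes, with an Eedflox line whose loxP sites flank exons 3 and 6 of Eed, a core subunit of polycomb repressive complex 2. The crosses were further inbred, and the strain label of all 20 libraries is C57BL6/J. Genotype and colony of origin cannot be told apart. The KO is aimed at hepatocytes, and Eed was not measured by cell type, so its loss in other liver cells is not known here. Each mouse gave a baseline library from lobes 1, 2 and 3, taken at partial hepatectomy (PHx), and a library after PHx from lobes 4, 5 and 6, so stage and lobe cannot be told apart either. After PHx each genotype had 1 library at 30 h, 2 at 40 h and 2 at 48 h. WT mice are numbered 1 to 5 and KO mice 7, 8, 10, 11 and 12. The title of WT baseline replicate 1 has no mouse number, so 9 mice are numbered at both stages.

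NNT sits in the inner mitochondrial membrane and uses the proton gradient to move hydride from NADH to NADP+, which makes NADPH inside mitochondria. That NADPH feeds the glutathione and thioredoxin systems, which clear peroxides. The C57BL/6J strain is known for an Nnt allele that lacks a block of internal exons and carries a missense change near the start of the protein, while many other strains and C57BL/6 sublines carry an intact gene, so that Nnt is widely used to tell substrains apart.

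Nnt (ENSMUSG00000025453, protein coding) lies on the minus strand of mm10 at chr13:119335448-119408997. The mm10 genome was itself read from C57BL/6J. Its annotated transcript Nnt-202 has 17 exons, 16 of them coding, with 3464 bases in all and 835 codons. Both known differences can be read in this transcript, and they are shown because they decide what a count of Nnt reads can and cannot tell. In the first line the capitals mark codon 35, the site of the known methionine-to-threonine change, in exon 2 at chr13:119404586-119404612. In the second line the capitals mark the exon 8 side (chr13:119374760-119374774) of the junction to which exon 7 (chr13:119381676-119381690) is joined, the place where the missing exons would lie. Both are written 5′ to 3′ on the strand of the gene, from the GENCODE M21 transcripts.

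Nnt-202 codon 35: gactttgtacgaACGcttcgtactcac

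Nnt-202 exon 7 to exon 8: cagctctgattccagGTGGTTTTCTGGTGA

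The codon reads ACG, which encodes threonine, so the gene model counted here is the C57BL/6J form. Reads from the exons that this form lacks have no place in the model. The counts are totals per gene and do not separate one allele from another, so every value below is a level of Nnt RNA and not an allele. GENCODE M21 gives the symbol Nnt to 2 overlapping identifiers, of which the files hold 1.

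Eed was checked first. It ranged from 14.6 to 23.2 counts per 1000000 (CPM, scaled by the TMM method) in the 10 WT libraries and from 2.75 to 7.52 CPM in the 10 KO libraries, with no overlap. Total counts ran from 21634890 to 30461351 per library, and mitochondrial-genome genes took 6.17% to 9.57% of them. Summed levels of the hepatocyte markers found in the files, 9 of the 10 listed (Alb, Apoa1 and others), reached 139521 to 158540 CPM at baseline and 82218 to 131945 CPM after PHx in WT, against 86463 to 113226 CPM and 45728 to 108833 CPM in KO. Markers of other cells, all of them in the files, moved with genotype in part. At baseline macrophage markers summed to 99.2 to 169.2 CPM in WT and 226.9 to 290.9 CPM in KO, and stellate markers to 155.1 to 255.8 CPM and 392.4 to 455.7 CPM, without overlap (7 markers each). Endothelial markers (7) were at 160.8 to 190.2 CPM and 194.8 to 229.3 CPM, and neutrophil markers (5) at 0.46 to 0.83 CPM and 1.596 to 7.20 CPM, higher in KO too. Erythroid markers (3) were lower in KO, at 140.9 to 240.7 CPM against 289.3 to 427.9 CPM in WT. Lymphocyte markers (7) overlapped, at 1.96 to 4.60 CPM in WT and 2.96 to 6.11 CPM in KO. Cholangiocyte markers (7) overlapped as well, at 23.5 to 59.0 CPM and 56.6 to 359.3 CPM, with Cftr at 0 in 6 of all libraries. Of the neutrophil markers Ly6g was at 0 in 16 of the 20 libraries and Mpo in 10, and of the lymphocyte markers Ms4a1 and Cd3g were at 0 in 6 each. After PHx the macrophage ranges were 56.97 to 234.8 CPM in WT and 58.9 to 251.02 CPM in KO, those of stellate markers 149.9 to 229.3 CPM and 247.9 to 460.1 CPM, and those of cholangiocyte markers 21.4 to 239.7 CPM and 120.2 to 563.02 CPM. After PHx endothelial markers were at 82.0 to 151.7 CPM in WT and 97.8 to 175.8 CPM in KO, below the baseline ranges. Lymphocyte markers were at 0.07 to 1.44 CPM and 0.11 to 1.45 CPM, below them too. Neutrophil markers were at 1.37 to 41.7 CPM in WT, above the baseline range, and 2.86 to 66.8 CPM in KO. Erythroid markers were at 120.65 to 350.0 CPM and 70.3 to 156.8 CPM. The part of these cells in the differences below, between genotypes or stages, of Nnt and of other genes, was not tested. In these bulk samples fewer hepatocytes and less RNA per hepatocyte cannot be told apart.

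In WT liver Nnt took very unequal levels from mouse to mouse. At baseline the 5 WT libraries held 45.3 CPM (replicate 1), 38.7 CPM (mouse 2), 150.0 CPM (mouse 3), 145.1 CPM (mouse 4) and 134.2 CPM (mouse 5), with a mean of 102.7 ± 55.7 CPM (SD, n = 5). Mice 3, 4 and 5 stood together near the top and the other libraries well below them. After PHx WT mice 1 to 5 had 39.9, 16.5, 104.5, 31.3 and 108.3 CPM, a mean of 60.1 ± 43.1 CPM (SD, n = 5). Here mice 3 and 5 were high and mice 1, 2 and 4 low. Over both stages 5 of the 10 WT libraries lay at or under 45.3 CPM and 5 at or above 104.5 CPM, a 2.31-fold step with no WT library inside it.

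KO libraries held less Nnt on average, and with both stages pooled they had no such step. At baseline KO mice 7, 8, 10, 11 and 12 had 35.2, 30.4, 64.4, 46.3 and 51.1 CPM, a mean of 45.5 ± 13.4 CPM (SD, n = 5). After PHx the same mice had 9.20, 14.6, 79.6, 24.3 and 28.5 CPM, a mean of 31.3 ± 28.1 CPM (SD, n = 5). Mouse 10 was the highest KO mouse at both stages, and the widest step among the 10 KO libraries, from 14.6 to 24.3 CPM, was 1.66-fold. Within KO after PHx alone the step was wider, from 28.5 to 79.6 CPM, and rested on mouse 10. All KO libraries, mouse 10 included, stayed below the upper 5 WT libraries, and KO and WT overlapped at both stages through the lower 5.

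**Figure D1:**
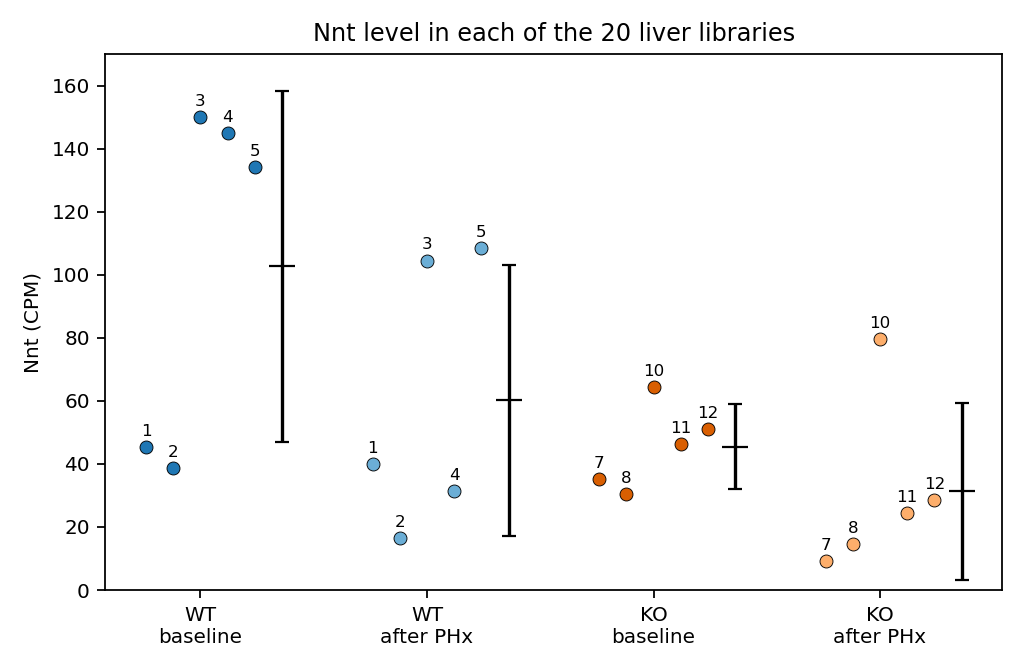
Nnt in each library, in CPM on a linear axis from 0, for the 4 groups of 5. Each point is a library with its replicate number (the mouse number, except WT baseline 1), and the bar beside each group is the mean ± SD. In WT 3 baseline and 2 post-PHx libraries stand at 104.5 CPM or above, and no KO library exceeds 79.6 CPM.

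By mean level the unoperated WT livers came first, followed by WT after PHx, then the unoperated KO livers, and KO after PHx came last. Neighbours in that order differed by 42.5, 14.6 and 14.2 CPM. The first of these gaps was smaller than the SD of either group. The second was smaller than the SD of WT after PHx, and the third was smaller than the SD of KO after PHx. Both of the latter gaps were larger than the SD of KO at baseline (13.4 CPM). So no gap exceeded the SDs of both its groups, which do not use the pairing of libraries by mouse. On the log2 scale Nnt was lower in KO than in WT by a fitted difference of -1.17 (SE 0.56) at baseline and -0.95 (SE 0.56) after PHx, which corresponds to 0.443 and 0.519 of the WT level. Scaled by library size alone, the differences were -0.72 and -0.67. Without KO mouse 10 after PHx the second difference was -1.66, and without WT mouse 5 after PHx it was -0.60.

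Counting error is small beside these differences. Nnt had between 307 and 3164 reads per library, for which the counting SD alone is 5.71% and 1.78% of the count. The SD of log2 Nnt over the WT baseline libraries was 0.97, while the median SD of the 3042 genes with a like mean level (29.9 to 119.8 CPM over all libraries) was 0.14. For WT after PHx the SD of Nnt was 1.15 beside a median of 0.33, for KO at baseline 0.43 beside 0.21, and for KO after PHx 1.15 beside 0.47. Nnt was selected on these levels, so the SDs are a description.

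The libraries of a mouse were then set side by side. WT mouse 3 went from 150.0 CPM at baseline to 104.5 CPM after PHx, mouse 5 from 134.2 to 108.3 CPM and mouse 2 from 38.7 to 16.5 CPM, so mice 3 and 5 were high and mouse 2 low at both stages. WT mouse 4 was the exception, with 145.1 CPM at baseline and 31.3 CPM at 48 h, which crosses the step. In KO mouse 10 went from 64.4 to 79.6 CPM, mouse 12 from 51.1 to 28.5 CPM, mouse 11 from 46.3 to 24.3 CPM, mouse 7 from 35.2 to 9.20 CPM and mouse 8 from 30.4 to 14.6 CPM. Of the 5 KO mice 3 held the same rank at both stages, and mice 7 and 8 shared the lowest ranks. Of the 4 numbered WT mice 1 held the same rank.

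After each stage was centred on its own mean, the libraries of the same WT mouse differed by 0.65 on average on the log2 scale (4 mice), and libraries of different WT mice by 1.39 (12 pairs). In KO the values were 0.50 for the same mouse (5 mice) and 1.01 for different mice (20 pairs). With a pseudocount of 0.5 CPM the same-mouse distance of Nnt was 0.467 of the different-mouse distance in WT and 0.494 in KO. Among the other 3041 genes of like mean level the median of this ratio was 1.00 in WT and 0.967 in KO. Of those genes 5.23% in WT and 3.58% in KO had a ratio at or under that of Nnt. Nnt was selected on this agreement, so the ratios are a description. WT replicate 1 at baseline (45.3 CPM) and WT mouse 1 at 30 h (39.9 CPM) were also close, but no label ties them to the same animal.

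**Figure D2:**
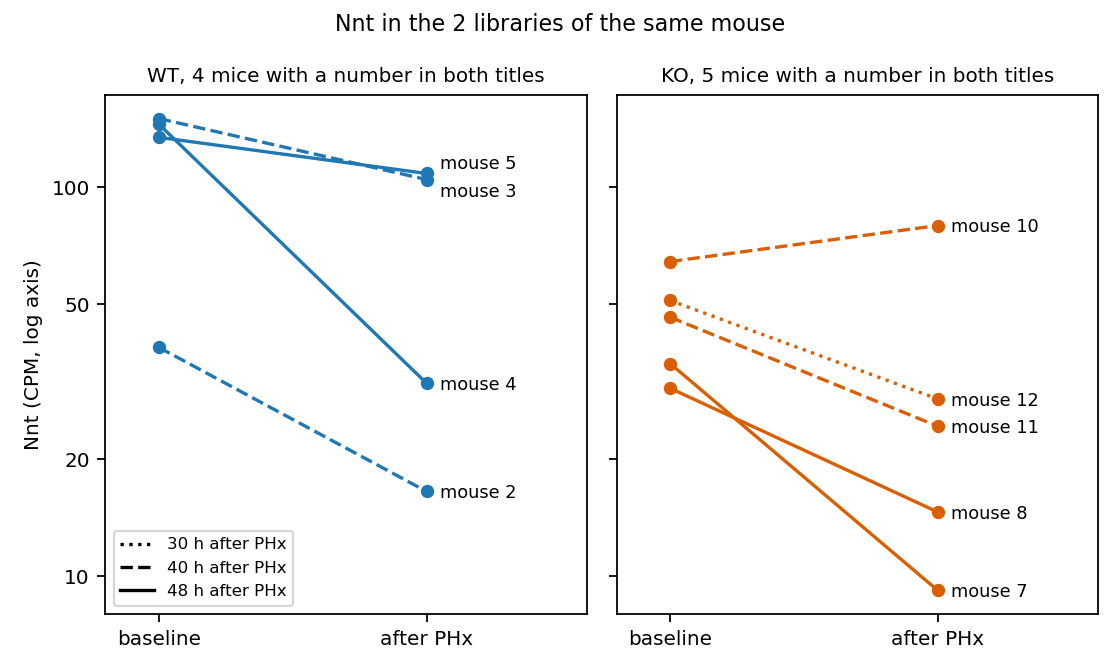
Nnt at baseline and after PHx in the 9 mice whose number stands in both titles, in CPM on a log axis, WT left and KO right. Each line joins the 2 libraries of a mouse, and its style gives the collection time. The line of KO mouse 10 rises, the other 8 lines descend, and WT mouse 4 drops from 145.1 to 31.3 CPM.

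Nnt was lower after PHx than at baseline in 8 of these 9 mice. The change per mouse on the log2 scale was -1.23 in WT mouse 2, -0.52 in mouse 3, -2.21 in mouse 4 and -0.31 in mouse 5. In KO it was -1.94 in mouse 7, -1.06 in mouse 8, 0.31 in mouse 10, -0.93 in mouse 11 and -0.84 in mouse 12. The mean change over the 9 mice was -0.97 (SD 0.78, two-sided exact sign-flip permutation test, p = 0.0078125). Run on all 14661 genes with a pseudocount of 0.5 CPM, where the mean change of Nnt was -0.95, the exact test gave Nnt an adjusted p of 0.0333 by Benjamini-Hochberg. At an unadjusted p under 0.05 it called 44.1% of all tested genes, 22.7% as lower, so a change of this kind was common in these livers. Nnt was chosen with these same pairs of libraries in view, so the p-values are no independent evidence of a fall. KO and WT mice differed in the change by 0.18 (KO minus WT, exact permutation of the genotypes over mice, p = 0.770), with a mean of -0.89 (SD 0.80) in KO and -1.07 (SD 0.86) in WT.

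Fitted without regard to the mouse, the response did not pass the threshold. edgeR's quasi-likelihood test gave a log2 change of -0.77 (SE 0.56, adjusted p = 0.351) in WT and -0.54 (SE 0.56, adjusted p = 0.472) in KO. The intervals of 2 SE ran from -1.88 to 0.34 in WT and from -1.65 to 0.57 in KO. The difference between the responses was 0.23 (SE 0.78, edgeR adjusted p = 0.936), with an interval of -1.34 to 1.80 that leaves room for a change in either direction. With the mouse as a block the edgeR values were -1.06 in WT (adjusted p = 0.0790) and -0.90 in KO (adjusted p = 0.0669), still above 0.05. Without KO mouse 10 after PHx the unblocked KO change was -1.25 (edgeR adjusted p = 0.0648) and the difference turned to -0.48. Without KO mouse 7 after PHx the unblocked KO change was -0.28 (edgeR adjusted p = 0.743).

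The levels after PHx are given by collection time, which differs between mice, so mouse and time cannot be told apart. KO mice 7 and 8 at 48 h had 9.20 and 14.6 CPM, the lowest of all 20 libraries, and were also the lowest KO mice at baseline, whereas WT mice 4 and 5 at that time had 31.3 and 108.3 CPM. At 40 h the ranges were 24.3 to 79.6 CPM in KO and 16.5 to 104.5 CPM in WT, which overlap. At 30 h the single libraries had 28.5 CPM in KO and 39.9 CPM in WT. In a fit with a mean for each time, the log2 difference between KO and WT was -2.55 (SE 0.86) at 48 h and -0.22 at 40 h. The KO change from baseline was -1.93 at 48 h (edgeR adjusted p = 0.0503) and 0.19 at 40 h (edgeR adjusted p = 0.901), with 2 libraries behind each time set against all 5 KO baselines. Against their own baselines the 40 h mice changed by 0.31 (mouse 10) and -0.93 (mouse 11), and the 48 h mice by -1.94 (mouse 7) and -1.06 (mouse 8), so the value above 0 at 40 h was not shared by both mice.

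**Figure D3:**
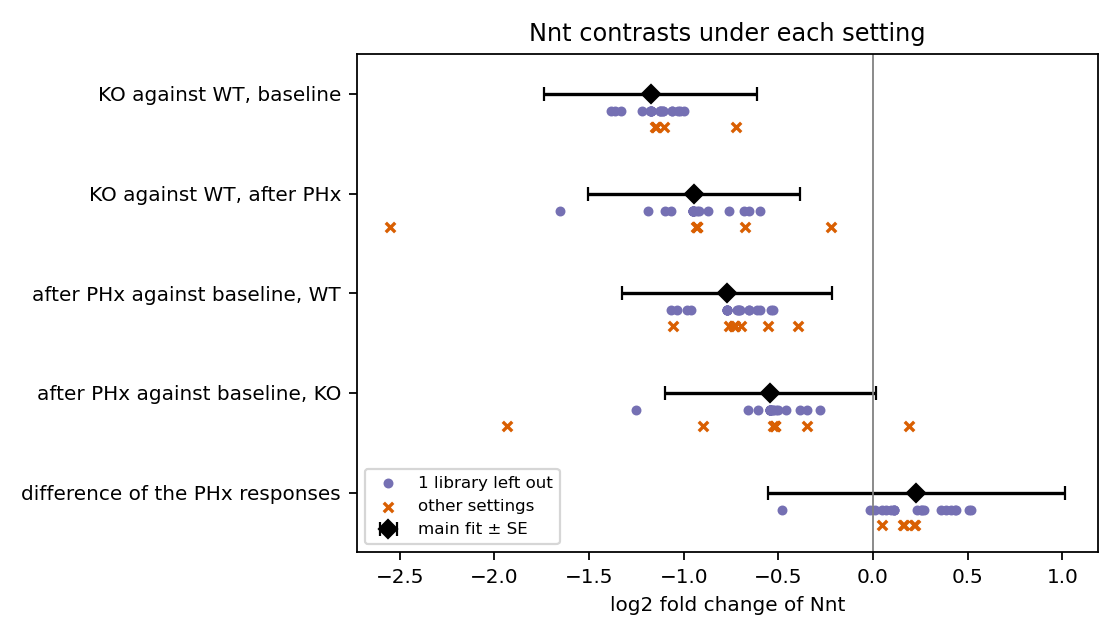
Log2 fold changes of Nnt for the 5 contrasts. Diamonds with bars give the fitted value ± SE with all 20 libraries, small circles the fits with 1 library left out, and crosses the other settings (scaling, filter, groups fitted, collection time, mouse as a block). Crosses at -2.55 and -1.93 are the 48 h fits, and the only cross to the right of 0 in the KO response is the 40 h fit at 0.19.

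Proliferation differed strongly between the libraries after PHx and is given beside Nnt. The summed level of 5 cell-cycle genes (Mki67, Top2a, Ccnb1, Cdk1 and Mcm5) was 381, 2.96, 51.1, 6.27 and 768 CPM in WT mice 1 to 5 after PHx. In KO mice 7, 8, 10, 11 and 12 it was 12.2, 30.6, 539, 105.7 and 11.5 CPM. WT mouse 5 and KO mouse 10, ranks 1 and 3 in Nnt among the 10 libraries after PHx, were ranks 1 and 2 in these genes. WT mouse 3, rank 2 in Nnt, was rank 5 in them. At baseline the sums were 2.43 to 5.07 CPM in WT, where Nnt ran from 38.7 to 150.0 CPM, and 16.7 to 87.5 CPM in KO. There the highest sums, 87.5 CPM in mouse 7 and 64.1 CPM in mouse 8, came with the lowest Nnt of the 10 baseline libraries, 35.2 and 30.4 CPM. The part of proliferation in the Nnt level was not tested.

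**Figure D4:**
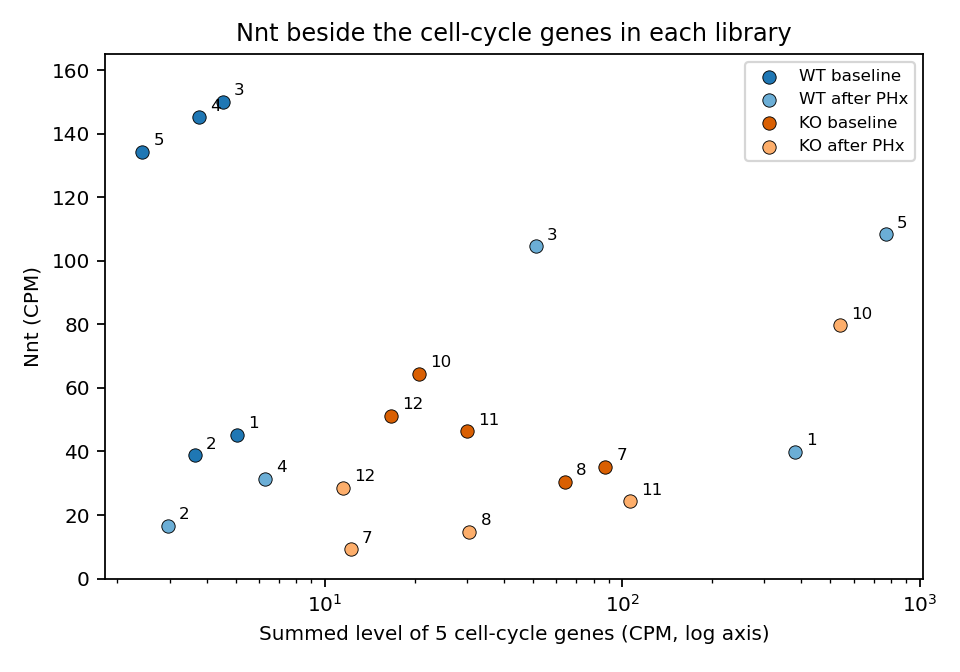
Nnt (CPM, linear axis) against the summed level of 5 cell-cycle genes (CPM, log axis) in each library, with replicate numbers. The 5 WT baseline libraries span 38.7 to 150.0 CPM of Nnt at sums of 2.43 to 5.07 CPM, and WT mouse 5 and KO mouse 10 after PHx combine high Nnt with the highest sums.

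The genes whose levels ran most closely with Nnt were found by Pearson's r of log2 CPM over the 20 libraries, among 12538 genes with a mean of at least 1 CPM. They were Ganab, a glucosidase subunit of the endoplasmic reticulum (r = 0.90), Skiv2l, a helicase that serves the RNA exosome (0.88), Pknox1, a homeobox transcription factor (0.88), Ide, the insulin-degrading enzyme (0.87), and Smyd1, a lysine methyltransferase best known from muscle (0.87). The median r of all genes was -0.01, 1% of genes exceeded 0.78, and 71 genes reached 0.8. The libraries share genotype and stage, so these values include the group differences.

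With each group centred on its own mean, the most similar genes were Skiv2l (0.86), Ganab (0.85), Tmem267 (0.83), Pknox1 (0.82) and Spg7, a protease subunit of the inner mitochondrial membrane (0.82). In this form the median of all genes was -0.01, and 14 genes reached 0.8. Ganab moved far less than Nnt: it ranged from 223.1 to 277.3 CPM over the WT baseline libraries and from 88.6 to 216.2 CPM over KO after PHx, again with mouse 10 highest. Tmem267 is the gene of this set that lies near Nnt, beyond Paip1 and 4833420G17Rik, at chr13:119488039-119611059.

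Tmem267 divided the WT baseline livers as Nnt did. It had 1.495 and 0.65 CPM in replicates 1 and 2, where Nnt was low, and 2.93, 2.98 and 2.75 CPM in mice 3, 4 and 5, where Nnt was high. In KO at baseline it had 1.97 CPM in mouse 10, the mouse with the most Nnt, and 0.56 to 0.72 CPM in the other 4. After PHx WT mice 1 to 5 had 1.05, 0.26, 3.69, 1.84 and 1.27 CPM, and KO mice 7, 8, 10, 11 and 12 had 0.27, 0.40, 1.72, 1.03 and 0.95 CPM. Mouse 10 was again the highest of KO. In WT the order differed from that of Nnt: mouse 5, with the most Nnt after PHx, had less Tmem267 than mouse 4, which was low in Nnt. These levels rest on 6 to 97 reads per library, and Tmem267 overlaps 3110070M22Rik, from which unstranded counts could not separate it. Its same-mouse distance was 0.344 of the different-mouse distance in WT and 0.574 in KO.

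Of the 26 coding genes that start within 2 Mb of Nnt, 8 were tested. Paip1, which binds the poly(A)-binding protein and lies 19603 bases from Nnt, was even across the WT baseline libraries (52.3 ± 2.90 CPM, SD, n = 5), where it stayed between 49.3 and 55.9 CPM. The next gene, 4833420G17Rik, had 16.9 ± 2.21 CPM (SD, n = 5), and Mrps30, a mitochondrial ribosome subunit 948195 bases away on the other side, 28.7 ± 2.33 CPM (SD, n = 5). Zfp131, a zinc finger gene, and 4833420G17Rik were also lower in replicates 1 and 2 than in mice 3, 4 and 5 among the WT baseline libraries, with smaller steps: Zfp131 had 11.1 and 11.4 CPM in replicates 1 and 2 and 15.1, 15.2 and 17.02 CPM in mice 3, 4 and 5, and 4833420G17Rik had 15.7 and 13.8 CPM against 16.9, 18.6 and 19.3 CPM. Over the 20 libraries r with Nnt was 0.85 for Tmem267, 0.49 for Hmgcs1, -0.25 for Zfp131, -0.38 for Mrps30, -0.41 for Nim1k, -0.52 for Paip1 and -0.58 for 4833420G17Rik. In KO 2 of the 8 passed edgeR's test after PHx against baseline, where 29.5% of all tested genes did (17.5% higher and 12.1% lower): Hmgcs1, an enzyme of cholesterol synthesis, fell by 1.51 on the log2 scale (adjusted p = 0.0159), and Mrps30 rose by 0.49 (adjusted p = 0.0472, and 0.0873 with the mouse as a block). Without KO mouse 10 after PHx 6 of the neighbours were called higher, and without KO mouse 7, 8 or 12 after PHx none was. The Hmgcs1 call was kept without any single library but lost by library size alone (-1.17, edgeR adjusted p = 0.0636), at 40 h (-1.45, 0.121) and at 48 h (-1.30, 0.0735), whereas that of Mrps30 was lost in 15 of the 20 fits that leave out 1 library, with an edgeR adjusted p of up to 0.162, and at 40 h (0.16, 0.623).

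Nnt was then set beside 7 genes known to differ between C57BL/6 substrains or colonies (Wdfy1, Ide, Fgfbp3, Entpd4, Cyfip2, Nlrp12 and Crb1), of which 5 were tested. For these genes too the counts give RNA levels and not alleles, and the substrain of the mice was not tested. Crb1 had 1 read in all libraries together, and Fgfbp3 had 159. In KO against WT 2 of the 5 passed edgeR's test at baseline, against 16% of all tested genes (11.1% higher and 4.89% lower in KO). The same 2 passed after PHx, against 24.2% of all tested genes (16% higher and 8.2% lower). These were Cyfip2, an actin regulator, which was higher in KO, and Nlrp12, an intracellular immune sensor, which was lower.

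Cyfip2 had 0.50 to 1.47 CPM in WT at baseline and 5.31 to 9.56 CPM in KO at baseline, a log2 difference of 2.86 (SE 0.54, edgeR adjusted p = 0.00125). After PHx the ranges were 0.22 to 1.26 CPM in WT and 3.22 to 20.1 CPM in KO, a log2 difference of 3.71 (SE 0.56, edgeR adjusted p = 9.92e-05). Nlrp12 had 33.1 to 58.9 CPM in WT and 4.79 to 8.20 CPM in KO at baseline (-2.89, SE 0.43, edgeR adjusted p = 0.000120), and 22.8 to 148.9 CPM in WT and 7.81 to 20.4 CPM in KO after PHx (-2.79, SE 0.42, edgeR adjusted p = 0.000104). For these genes no KO library overlapped WT at either stage, unlike Nnt. How many of all tested genes also had no overlap was not counted. All 4 calls were kept in every setting tried. Within WT neither gene followed the Nnt step: Nlrp12 had 58.9, 33.1 and 53.7 CPM in the high-Nnt mice 3, 4 and 5 at baseline and 48.8 and 37.6 CPM in the other libraries.

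Wdfy1, which codes for a phosphoinositide-binding protein, was also uneven within WT, and differed from Nnt in mouse 4 at baseline. At baseline it had 6.24, 5.05, 18.99, 5.32 and 16.6 CPM in WT replicates 1 to 5, so that mice 3 and 5 were high and replicates 1 and 2 low for both genes, while mouse 4 was high for Nnt and low for Wdfy1. After PHx WT mice 1 to 5 had 5.89, 13.7, 17.8, 20.3 and 14.8 CPM of Wdfy1, so mouse 4 changed on both genes, in opposite directions. KO mice 7, 8, 10, 11 and 12 had 17.4, 7.73, 11.001, 5.03 and 6.01 CPM at baseline and 21.04, 14.6, 9.54, 6.64 and 7.20 CPM after PHx. The same-mouse distance of Wdfy1 was 0.315 of the different-mouse distance in KO and 1.03 in WT. Over the 20 libraries its r with Nnt was -0.04.

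Ide, which lies in a segment known to vary in copy number among C57BL/6J mice, was the substrain gene closest to Nnt (r = 0.87). It had 112.9, 109.9, 188.5, 128.7 and 113.6 CPM in WT replicates 1 to 5 at baseline, with mouse 3 apart from the rest. After PHx the values in WT were 106.8, 49.7, 142.1, 57.7 and 115.6 CPM, with mice 3 and 5 high and mice 2 and 4 low for both genes, while mouse 1 was near mouse 5 in Ide and low in Nnt. KO mouse 10 again had the most Ide after PHx, with 107.5 CPM against 41.7 to 63.5 CPM in the other 4 KO mice. The KO against WT difference of Ide was -0.59 at baseline (SE 0.30, adjusted p = 0.184 by edgeR). After PHx it was -0.65 (SE 0.30, adjusted p = 0.121 by edgeR), and neither passed the threshold. Entpd4 was low in all groups (0.81 to 2.34 CPM), with an r of 0.05 with Nnt.

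A further pair of genes differs between C57BL/6 and other strains. Ifi202b, an interferon-induced gene, had no read in any library. Casp4, the caspase that senses bacterial lipopolysaccharide and that some other laboratory strains carry in an inactive form, was higher in KO at both stages. The log2 difference at baseline was 1.83 (SE 0.60, adjusted p = 0.0416 by edgeR), and that after PHx was 1.72 (SE 0.59, adjusted p = 0.0394 by edgeR). KO mouse 7 had the most Casp4 at both stages, 7.87 and 4.94 CPM, and was low in Nnt at both. The baseline call was lost in 7 of the 20 fits that leave out 1 library, with an adjusted p of up to 0.164 without KO mouse 7, and the call after PHx in 6, with up to 0.1096 without KO mouse 7. The call after PHx was also lost with no filter (edgeR adjusted p = 0.0531), with only the groups compared (0.0938), at 40 h (0.91, 0.538) and at 48 h (2.23, 0.102).

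**Figure D5:**
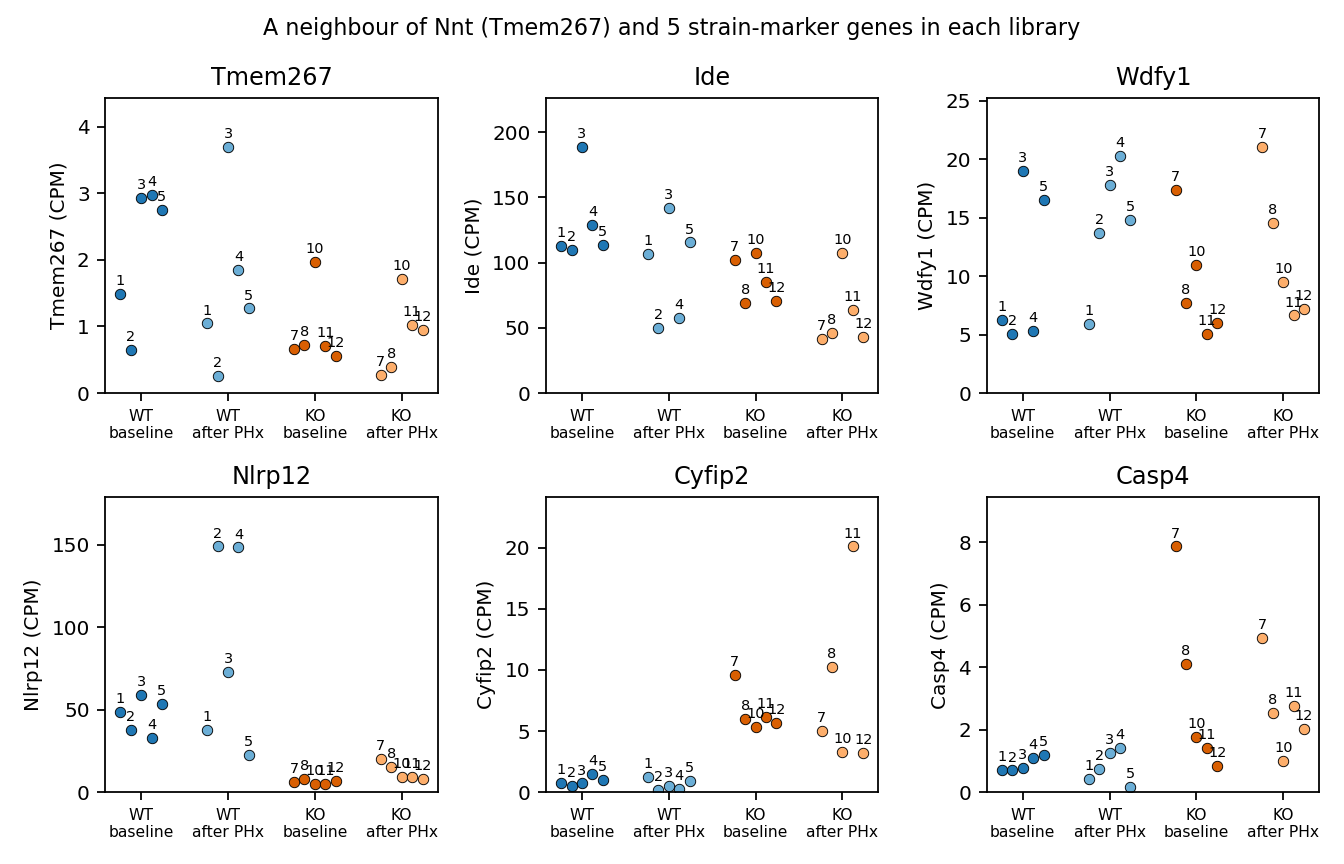
Levels of Tmem267, which lies near Nnt, and of 5 genes known to differ between strains or substrains, in CPM on linear axes from 0, for each library with its replicate number. Tmem267 is higher in WT baseline mice 3, 4 and 5 than in replicates 1 and 2, Wdfy1 is higher in mice 3 and 5, and for Nlrp12 and Cyfip2 no KO library overlaps WT of the same stage.

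The pathway around Nnt was described with 5 lists. Of 8 genes of mitochondrial NADPH supply 6 were tested. After PHx against baseline 1 rose and 1 fell in WT, where 20.1% of all tested genes were called (11.4% higher and 8.68% lower), and likewise in KO, where 29.5% were (3 fell without KO mouse 10 after PHx, and 2 fell and 0 rose with the mouse as a block). Nadk2, the kinase that makes NADP+ in mitochondria, fell by 0.91 in WT (edgeR adjusted p = 0.0177, 0.0692 without WT mouse 4 after PHx and 0.0583 at 48 h) and by 1.12 in KO (0.00493, and 0.145 at 40 h). Mthfd2, a folate enzyme that makes mitochondrial NADPH and NADH, rose by 1.92 in WT (edgeR adjusted p = 0.00427) and 1.29 in KO (0.0257, and 0.0605 with the mouse as a block, with the call also lost in 3 fits that leave out 1 library). The Mthfd2 call was lost at 40 h in WT (1.17, edgeR adjusted p = 0.0977) and at 48 h in KO (0.86, 0.148). Against WT, the KO had less Nadk2 after PHx (-0.97, SE 0.26, edgeR adjusted p = 0.0105). That call was lost at 40 h (-0.21, edgeR adjusted p = 0.726) and with only the groups compared in the fit (-0.94, edgeR adjusted p = 0.114). Nadk2 had r = 0.72 with Nnt over the 20 libraries. At baseline edgeR called none of the 6 (1 at an unadjusted p under 0.05, 1 by DESeq2).

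All 10 genes of cytosolic NADPH supply were tested, and 1 rose and 3 fell in WT after PHx, 2 rose and 2 fell in KO, beside 20.1% and 29.5% of all tested genes called. With 1 library left out the KO count ran from 0 to 2 for rises and from 1 (without mouse 7 or 8 after PHx) to 5 (without mouse 10 after PHx) for falls, and with the mouse as a block 1 rose and 4 fell. The KO rises were Pgd, lost in 13 of the 20 fits that leave out 1 library, and G6pdx, which starts the pentose phosphate pathway, lost in 7 and with the mouse as a block (edgeR adjusted p = 0.124). Pgd, of the pentose phosphate pathway, rose by 1.18 in WT (edgeR adjusted p = 0.00994), while Idh1, the cytosolic isocitrate dehydrogenase, fell by 1.48 (0.00159) and Aldh1l1, which oxidises formyl folate, by 1.55 (0.00984). These 3 WT calls were kept in every setting tried. The median log2 change of the list was -0.36 in WT and -0.44 in KO, where that of all tested genes was 0.04 and 0.10. KO had less Me1, the cytosolic malic enzyme, at baseline (-1.04, SE 0.23, edgeR adjusted p = 0.00425).

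Of the 10 genes of the mitochondrial peroxide and thiol systems, 1 rose and 3 fell after PHx in each genotype, beside 20.1% of all tested genes called in WT and 29.5% in KO. Gsr, glutathione reductase, which spends NADPH, rose by 1.15 in WT (edgeR adjusted p = 0.00448) and by 0.75 in KO (0.0335, and 0.0795 with the mouse as a block, with the call also lost in 6 fits that leave out 1 library). The KO call of Gsr was lost at 40 h (0.21, edgeR adjusted p = 0.716) and with no filter (0.0535) too. Txnrd2, the mitochondrial thioredoxin reductase, fell by 1.11 in WT (0.00276) and by 0.79 in KO (0.0160, and 0.0505 without KO mouse 7 after PHx), with r = 0.75 with Nnt. Its KO call was lost at 40 h (-0.44, edgeR adjusted p = 0.382) and with only the groups compared (0.0550). At baseline Txnrd2 was lower in KO (-0.89, SE 0.23, edgeR adjusted p = 0.0117, and 0.0648 without KO mouse 7), the only call of this list there. Scaled by library size alone, the calls of Me1 (edgeR adjusted p = 0.0976), of Nadk2 in WT (0.172) and in KO against WT (0.132), and of Txnrd2 in KO (0.137) and at baseline (0.2401) were lost.

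All 11 genes of NAD synthesis and use were tested, and 1 rose in WT after PHx, 1 rose and 1 fell in KO, beside 20.1% and 29.5% of all tested genes called. Without KO mouse 10 after PHx 6 fell in KO, and with the mouse as a block 2. Nnmt, which methylates nicotinamide, rose by 2.23 in WT (edgeR adjusted p = 0.000351) and 1.89 in KO (0.00137). Sirt3, the main mitochondrial NAD-dependent deacetylase, fell by 1.36 in KO (edgeR adjusted p = 0.0121, but -0.63 with 0.249 at 40 h), with r = 0.77 with Nnt. Of 12 genes of mitochondrial content (Vdac1, Tfam, Cs and others) 2 rose in each genotype after PHx, beside the same 20.1% and 29.5%, with a list median of 0.08 in WT and 0.26 in KO, while Nnt was lower after PHx in 8 of 9 mice. The 2 WT calls, Tomm40, an import channel subunit, and Cycs, cytochrome c, were both lost with the mouse as a block (edgeR adjusted p = 0.140 and 0.149). In KO against WT at baseline Hspa9 (-0.70, edgeR adjusted p = 0.00308) and Hspd1 (-0.61, 0.0105) were lower, beside 16% of all tested genes called. Both calls were lost by library size alone (edgeR adjusted p = 0.217 and 0.529). After PHx Vdac2 was higher and Hspa9 and Phb lower, beside 24.2%. The Vdac2 call was lost in 2, and the others in 16 each, of the fits that leave out 1 library. Over the 20 libraries r with Nnt ran from -0.51 (Tomm20) to 0.76 (Vdac1).

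Counting each gene once, the lists held 86 genes, of which 63 were tested. edgeR called 7 of them (11.1%) in KO against WT at baseline, where 16% of all tested genes were called. After PHx it called 9 (14.3%), where 24.2% were called. For the PHx response the shares were 20.6% in WT and 25.4% in KO, beside 20.1% and 29.5% of all tested genes. In this fit the share of list genes called was therefore near or below that of all genes. Other settings moved the counts, to 24 at baseline with only the groups compared, and to 3 at 40 h and 34 at 48 h for the KO response. The share of all genes is not given for those settings. For the difference between the responses edgeR called 0 of the 63 (2 at an unadjusted p under 0.05, 0 by DESeq2), where 0.389% of all tested genes were called.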

How the data were processed

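Each of the 20 liver libraries has its own deposited table of unnormalised counts per Ensembl identifier, and every row names a gene. The series' design text gives FastQC 0.11.5 for quality control, fastp 0.20.0 for trimming, and alignment to mm10 with only uniquely mapped reads counted. The submitters' processing notes name Trimmomatic 0.36 and not fastp. The aligner, counting program, annotation and strand setting are not given in the sources used here. Symbols and coordinates came from GENCODE M21, which holds 46005 of the 46603 identifiers. Libraries were grouped by the labels.

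edgeR 4.0.16 in R 4.3.3 (filterByExpr, TMM, quasi-likelihood test, two-sided, 4 group means over 20 libraries) gave log2 fold changes and p-values adjusted by Benjamini-Hochberg over 14661 genes, called under 0.05. The SE is the log2 change divided by the square root of F. CPM is not corrected for length. Log2 CPM used a pseudocount of 0.5 in likeness, spread, same-mouse ratios and in the exact test over all genes, and none in levels and changes of Nnt per mouse. On simulated counts with 200 genes changed by a log2 of 2, recovery was 79.5% (baseline) and 81% (after PHx) for KO against WT, 71.5% (WT) and 81% (KO) for the PHx response, and 51% for the difference of responses. Alternatives were DESeq2 1.42.0, its size factors in edgeR, library size alone, no filter, fewer groups, collection time, the mouse as a block, and leaving out each library.

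Nnt, the lists and the tests were chosen with earlier results of these data known, so they are not independent evidence. The genes named are Nnt, Eed, the 5 most like Nnt by each measure, the nearest tested neighbours (up to 3 a side), the substrain genes, and up to 2 highest and 2 lowest called per list and contrast, of which the text gives the main ones; Tmem267 was also followed because of its values, and Hmgcs1 and Casp4 through their lists. The pairing of libraries by mouse rests on the labels. Over all genes, deviations of same-mouse libraries from their group means had a mean r of 0.04 (0.02 to 0.09) in WT and 0.08 (-0.07 to 0.18) in KO, beside -0.00456 (-0.07 to 0.08) and -0.02 (-0.24 to 0.27) for different mice, ranges that overlap those of the same mouse. P-values compare mice within these colonies.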

Additional observations from a re-analysis of the deposited data

Results flagged for a closer look

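Within the groups of 5, a library was looked for whose gap to its nearest neighbour takes more than 0.71 of the group's range (Dixon's 95% value for 5 samples). Chance flags about 1 in 20 groups, and 64 groups were checked, with 6 libraries found. Nnt was selected on its levels, so its flag is a description and not a test. Nnt in KO mouse 10 after PHx stood apart at 79.6 CPM, where the next KO library had 28.5 CPM. Pknox1 stood apart in the same library, with 15.9 CPM against 8.87 CPM in the next. Tmem267 stood apart in KO mouse 10 at baseline, with 1.97 CPM against 0.72 CPM. Ide was apart in WT mouse 3 at baseline, with 188.5 CPM against 128.7 CPM. Mrps30 was apart in KO mouse 12 at baseline, with 29.2 CPM against 24.4 CPM. Cyfip2 was apart in KO mouse 7 at baseline, with 9.56 CPM against 6.19 CPM.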

How the results depend on the processing

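The tested Nnt contrasts kept their side of the threshold in every setting run. Their direction turned in 3: the response in KO at 40 h (0.19, against all KO baselines; its mice changed by 0.31 and -0.93 against their own), and the difference of the responses without WT mouse 2 after PHx (-0.01) and without KO mouse 10 after PHx (-0.48). KO against WT after PHx moved to -2.55 at 48 h. With 1 library left out, KO against WT ran from -1.38 to -0.998 at baseline and from -1.66 to -0.60 after PHx, the response from -1.06 to -0.53 in WT and from -1.25 to -0.28 in KO, and the difference from -0.48 to 0.52. The mean change per mouse ran from -1.13 to -0.81 (unadjusted exact permutation p of 0.0078125 to 0.015625) and was -0.69 (unadjusted exact p = 0.03125) by library size alone; whether the p adjusted over all genes stays under 0.05 there was not tested. That scaling shifted the median of all genes by 0.48, 0.38, 0.36 and 0.27 in KO against WT at baseline, after PHx, and the response in WT and KO, and the Nnt contrasts then were -0.72, -0.67, -0.40 and -0.35. With the replicate block, which ties the libraries of a mouse, the responses were -1.06, -0.90 and, for the difference, 0.16 (edgeR adjusted p = 0.948); beyond the calls given in the text it changed no other named call.

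The number of list genes called moved from 7 to 24 for KO against WT at baseline when only the groups compared were fitted. For KO against WT after PHx it moved from 9 to 5 with no filter, 2 with only the groups compared and 14 at 48 h. For the response in WT it moved from 13 to 20 by library size alone, and for that in KO from 16 to 3 at 40 h and 34 at 48 h. With 1 library left out the counts ran from 4 (without KO mouse 7) to 9 at baseline, 4 (without KO mouse 7) to 20 (without KO mouse 10) after PHx, 10 to 17 for WT and 10 (without KO mouse 7) to 33 (without KO mouse 10) for KO. Without KO mouse 11 after PHx the count for KO against WT was 5. Of 42 named calls 22 were kept in every fit with 1 library left out, and 11 under all settings. By Spearman's rho 3 of the 5 genes most like Nnt over the 20 libraries stayed among the 5 highest, and 0 in WT or KO libraries alone; for within-group deviations the numbers were 0 by rho, 0 in WT alone and 1 in KO alone. The cause was not tested. The lowest Nnt count of 307 reads limits a single library to a counting SD of 5.71%, while Tmem267 had as few as 6 reads, where a 2-fold step is not secure.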
